A study of Bos taurus with 8 samples.

Results

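The genes described here encode the proteins of the cytosolic ribosome. They were chosen by gene symbol: a probe of the bovine array was taken when its RefSeq accession was named RPL or RPS with a number, or as a protein of the ribosomal stalk, in the bovine gene table, while S6 kinases, mitochondrial ribosomal proteins and paralogues with an L after the number were left out. The rule found 59 probes for 56 symbols. One of these symbols, RPS19BP1, belongs to a protein that binds a ribosomal protein and is not itself part of the ribosome, so 55 genes with 58 probes remained, of 7788 named genes and 21475 probes on the array. They comprised 26 genes of the small subunit and 29 of the large subunit. Where a gene had several probes, the brightest was used.

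The cytosolic ribosome translates the messenger RNAs of the nucleus. Its small subunit decodes the message and its large subunit joins the amino acids, and each subunit holds many small, basic proteins around its ribosomal RNA. The messenger RNAs of these proteins begin with a terminal oligopyrimidine tract, through which nutrient signalling by the mTOR pathway is known to control their translation, so that the amount of messenger RNA and the amount of protein made from it can differ. Rumen papillae are lined by a squamous epithelium whose basal cells divide and replace the surface cells. Several ribosomal protein genes are common reference genes for quantitative PCR in cattle.

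RNA came from rumen papillae of 4 ruminally cannulated lactating Holstein cows, each sampled on a low-concentrate diet with 40% concentrate (LC) and on a high-concentrate diet with 70% concentrate (HC), in a crossover of 2 periods. The cows averaged 84 days in milk (SD 25) when the trial began. Papillae were taken from the ventral sac of the rumen on day 21 of each period, 4 h after the morning feeding, and each of the 8 samples was hybridised to 1 single-colour array, 4 per diet. Cows 1 and 2 received LC in period 1 and cows 3 and 4 received it in period 2. Per the barcodes in the file headers, the 4 arrays of a period were on 1 slide, so period and slide cannot be told apart. Values are quantile-normalized log2 signals, and a difference between diets is HC minus LC from a limma fit of diet, period and their interaction over all probes. A value after ± is an SD over 4 arrays, and an interval is the 95% interval of limma. The study defined a difference as a fold change of at least 1.5 with an unadjusted p under 0.05.

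The papillae showed their epithelium on all arrays: of the 14 squamous epithelial markers, 11 were on the array and 10 exceeded the background clearly on each of the 8, while TP63, a transcription factor of basal cells, was so on none. Here and below, a listed gene counts as on the array when the gene table named a probe for it. None of the 11 had an unadjusted limma p under 0.05 for diet, against 3.65% of all probes. The log2 of the summed signal of the 11 was 19.79 to 20.12 on LC and 19.92 to 20.09 on HC. The summed signal of the 5 leukocyte markers on the array was 11.26 to 11.49 on LC and 11.26 to 11.90 on HC, with ITGAM not well above background on any array. All 5 had a positive diet difference (median 0.17). None of the 5 had an unadjusted limma p under 0.05 for diet, the smallest being 0.076. In tissue of mixed cells, fewer cells of a type and less RNA per cell cannot be told apart.

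All 55 genes exceeded the background clearly (the software's own test) on every array, and most were among the brightest features of the array. The 100 brightest probes included 44 of the 55 genes, the 200 brightest 49 and the 1000 brightest 53. Of the 55, 51 were so bright on all 8 arrays that the scanner software took their signal from a second scan at low gain and scaled it up, which it did on all 8 arrays for 329 of the 21475 probes. The 4 genes read from the ordinary scan were RPL7, RPL15, RPL37A and RPS27. The probe for RPS27 carries the accession of a non-coding transcript of that gene (NR_024613). No spot was saturated. Quantile normalization gives the brightest ranks of every array the same values, so a shift shared by these genes would be largely removed by it. Values with each array scaled to its 75th percentile or to its spike-in control spots are therefore given beside the normalized ones where they differ.

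Between the diets, none of the 55 genes had an unadjusted limma p under 0.05, against 3.65% of all probes. None passed both thresholds of the study, against 0.922% of all probes. The smallest p was 0.169 (RPS29), and after Benjamini-Hochberg adjustment over all 21475 probes no probe was under 0.05, the smallest adjusted p being 0.412. Without moderation of the variance, which is the general linear model of the study's methods, 2 of the 55 were under 0.05, RPL31 with a p of 0.00733 and RPS29 with a p of 0.0442, against 4.15% of all probes in that model. The median log2 difference was 0.0072, with a range from -0.083 to 0.13, against a median of 0 to 2 decimals over all probes (-4.48e-05). HC was higher for 33 genes and lower for 22. The largest difference was 1.10-fold.

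**Figure D1:**
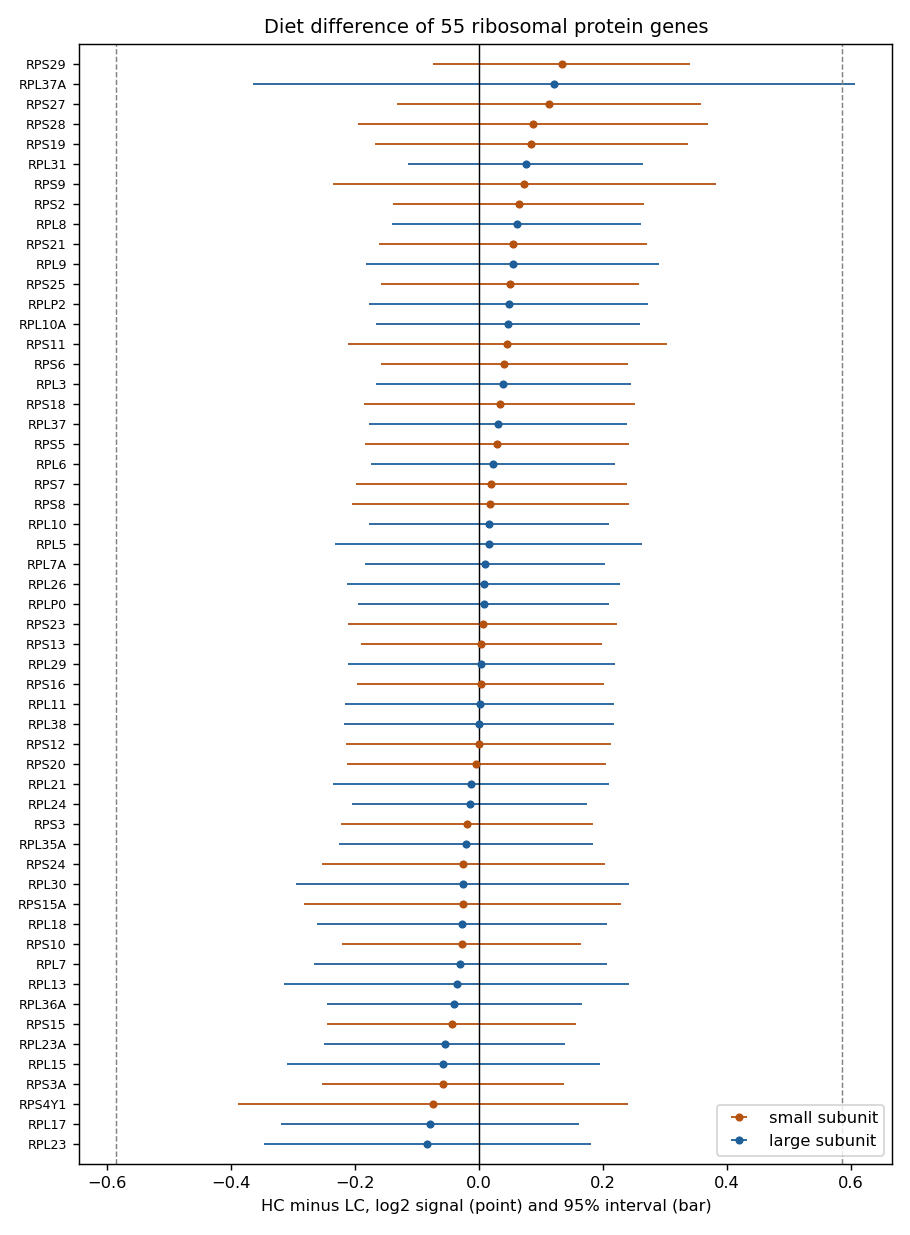
Difference between the HC and LC diets (log2 signal, points) with its 95% interval from limma (bars) for the 55 ribosomal protein genes, ordered by the difference and coloured by subunit, with dashed lines at a 1.5-fold change. All points lie between -0.083 and 0.13, every interval includes 0, and only the interval of RPL37A crosses a dashed line.

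The intervals bound how large a diet difference of a gene the quantile-normalized values allow. They do not bound a shift shared by these genes, which the normalization would largely remove. For 54 of the 55 genes the whole interval lay within a 1.5-fold change in either direction. The exception was RPL37A, whose interval reached from -0.37 to 0.61 (log2), or up to 1.52-fold higher on HC. The intervals of 54 genes lay within a 1.5-fold change with the 75th percentile scaling, and those of 53 with the spike-in scaling. By subunit, the median difference was 0.019 over the small subunit, with 17 of 26 genes higher on HC, and 0.0035 over the large subunit, with 16 of 29 higher. With the 75th percentile scaling, the median over all 55 genes was -0.016 and 22 genes were higher on HC. With the spike-in scaling, it was -0.012 and 23 were higher. The sign of the median thus depended on the scaling. After quantile normalization, the SD between cows of the median difference was 0.026, larger than the median itself.

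The stalk of the large subunit recruits the elongation factors, and of its proteins RPLP0 and RPLP2 were measured. RPLP0 was at 17.96 ± 0.13 on LC and 17.97 ± 0.050 on HC, with LC values of 17.81, 17.91, 18.05 and 18.08 and HC values of 18.01, 17.90, 18.01 and 17.97 in cows 1 to 4. RPLP2 was at 18.05 ± 0.058 on LC and 18.10 ± 0.11 on HC. The groups overlapped for both genes. RPL5 and RPL11 form a particle with the 5S ribosomal RNA and are also known for binding MDM2, the inhibitor of p53. RPL5 was at 16.62 ± 0.11 on LC and 16.63 ± 0.12 on HC, and RPL11 at 17.12 ± 0.10 on LC and 17.12 ± 0.053 on HC. RPS6, the substrate of the S6 kinases, was at 17.70 ± 0.057 on LC and 17.74 ± 0.036 on HC, a difference of 0.041 (interval -0.16 to 0.24).

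RPS9, RPS15 and RPS23 are used as reference genes in cattle, and RPS3 lies where the message enters the small subunit. Their diet differences were 0.073 for RPS9, -0.044 for RPS15, 0.0055 for RPS23 and -0.020 for RPS3. They differed in their spread over the 8 arrays: the SD was 0.16 for RPS9, 0.061 for RPS23 and 0.048 for both RPS15 and RPS3. The 4 LC arrays of RPS9 lay at 15.59, 15.73, 15.90 and 15.79 and the 4 HC arrays at 15.87, 15.72, 16.08 and 15.64 in cows 1 to 4, so that the highest was HC of cow 3 and the lowest LC of cow 1. RPLP1, RPSA, RPS27A, RPL13A and RPL41 had no probe matched to them and are not analysed here.

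RPL31 (RefSeq NM_001025341), a large subunit protein near the exit of the nascent chain, was the only one of the 55 genes for which the groups did not overlap, against 0.922% of all probes with every HC array above every LC array and 0.68% with every HC array below. Its LC signals were 17.48, 17.51, 17.51 and 17.53 and its HC signals 17.54, 17.58, 17.61 and 17.59 in cows 1 to 4. The difference was 0.075 (limma p = 0.375, exact two-sided test over the 4 paired differences p = 0.125, the smallest that 4 cows can give), and HC was higher in 4 of 4 cows, by 0.057 to 0.10. The SD between the 2 spots of the RPL31 probe on 1 array was 0.25. With the 75th percentile scaling, HC was higher in 2 of 4 cows (difference 0.056), and with the spike-in scaling in 3 of 4 (0.060), and the groups then overlapped. In these scalings none of the 55 genes had every HC array above every LC array, against 0.917% and 0.265% of all probes.

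RPS29 (NM_174804), a small zinc-binding protein of the small subunit, had the largest difference of the 55 genes. It was at 16.02, 16.06, 16.32 and 16.20 on LC and at 16.27, 16.27, 16.36 and 16.23 on HC in cows 1 to 4. HC was higher in 4 of 4 cows, by 0.25 and 0.21 in cows 1 and 2 and by 0.031 and 0.035 in cows 3 and 4, and the groups overlapped. The mean difference was 0.13 (SE 0.086, limma p = 0.169, exact permutation p = 0.171 over arrays without their pairing, paired exact p = 0.125). RPL31 and RPS29 were the 2 of 55 genes higher on HC in 4 of 4 cows, against 6% of all probes, and none was lower in 4 of 4, against 4.98% of all probes. With the spike-in scaling, RPS3A alone was lower on HC in 4 of 4 cows, against 2.31% of all probes.

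**Figure D2:**
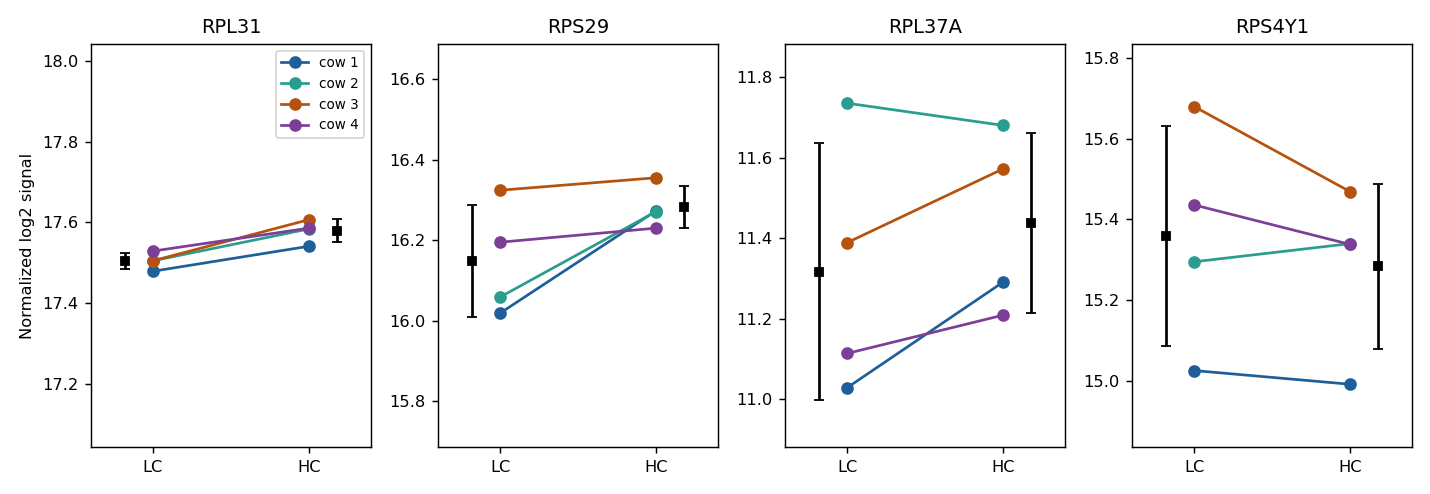
Normalized log2 signal of RPL31, RPS29, RPL37A and RPS4Y1 on the LC and HC arrays, with a line for each of the 4 cows and the mean ± SD (squares and bars, n = 4) of each diet, each panel spanning 1 log2 unit. RPL31 lies 0.057 to 0.10 higher on HC in each cow, RPS29 lies 0.031 to 0.25 higher, and the lines of RPL37A and RPS4Y1 lie further apart between cows than between diets.

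RPL37A (NM_001035008), a zinc-binding protein of the large subunit, and RPS27, one of the small subunit, had the next largest differences, and both were read from the ordinary scan. RPL37A was at 11.03, 11.74, 11.39 and 11.11 on LC and 11.29, 11.68, 11.57 and 11.21 on HC in cows 1 to 4, so that the spread between cows (SD over 8 arrays 0.26, the largest of the 55 genes) exceeded the difference of 0.12 (SE 0.20, exact permutation p = 0.543). RPS27 was at 10.33 ± 0.097 on LC and 10.44 ± 0.13 on HC (difference 0.11, exact permutation p = 0.229). RPS19, which is needed to mature the small subunit, had a difference of 0.084 and RPS2 one of 0.064, both with overlapping groups.

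On the lower side, RPL23 and RPL17 had the largest differences. RPL17 and RPL23A line the exit of the peptide tunnel. RPL17 was at 16.29, 16.53, 16.71 and 16.70 on LC and 16.38, 16.54, 16.44 and 16.55 on HC in cows 1 to 4, a difference of -0.080 (exact permutation p = 0.486). It came from cows 3 and 4, while HC was higher in cow 1 and slightly higher in cow 2. RPL23 was at 17.42 ± 0.082 on LC and 17.33 ± 0.17 on HC (difference -0.083, exact permutation p = 0.40) and was higher on HC in cow 2 alone. RPL23A and RPS3A had differences of -0.056 and -0.059.

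More than one probe was present for RPL15 and RPS3A. The 3 probes of RPL15 had diet differences of -0.058, 0.072 and 0.031, and so did not share a sign. Both probes of RPS3A were lower on HC, by -0.059 and -0.12 (log2). The smallest limma p among these 5 probes was that of the second RPS3A probe, at 0.281. Ribosomal protein genes have many processed pseudogenes, and how far a probe also binds their transcripts was not tested.

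The signal of these genes varied little from array to array. The SD over the 8 arrays had a median of 0.078 (range 0.025 to 0.26), against 0.23 over the 16030 probes that passed the background test on every array and 0.14 over the 277 other probes read from the low-gain scan. The median SD between the 2 spots of a probe on 1 array was 0.080, measured on single spots, whereas each array value is a mean of spots. The array SD was the larger for 28 of the 55 genes, against 11045 of the 15995 probes with such spots among those well above background. RPL24 (SD 0.025), RPS13 (0.032) and RPL6 (0.035) varied least, and RPL37A (0.26), RPS4Y1 (0.23) and RPS9 (0.16) most. The small spread rests in part on the normalization: with the 75th percentile scaling the median SD of the 55 genes was 0.17, as for the other low-gain probes (0.17) and below the 0.24 of all probes well above background. With the spike-in scaling the 3 medians were 0.10, 0.19 and 0.30.

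**Figure D3:**
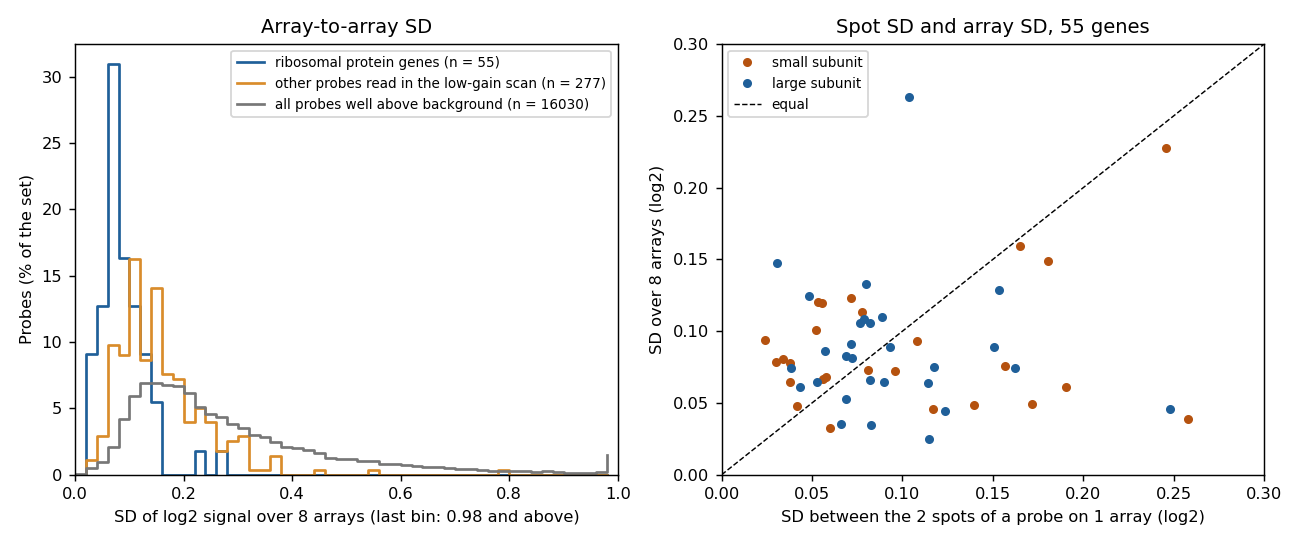
Left, distribution of the SD of the log2 signal over 8 arrays for the 55 ribosomal protein genes, the 277 other probes read in the low-gain scan and all 16030 probes well above background, as a percentage of each set. Right, SD over arrays against SD between the 2 spots of 1 array for the 55 genes, with a dashed line where they are equal, above which 28 of the 55 lie.

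Most of the 55 genes moved together between arrays, and which arrays were high or low depended on the scaling. After quantile normalization, 45 of the 55 genes were above their own mean over the 8 arrays on the LC array of cow 3 and 45 on the HC array of cow 3, but 9 on the LC array and 17 on the HC array of cow 1. Of the 16030 probes well above background, 8024, 7862, 7452 and 7678 were above their own mean on these arrays, in the same order. The LC array of cow 1 was the lowest of the 8 for 28 of the 55 genes, against 2701 of the 16030 probes. The median deviation of the 55 genes was -0.078 and -0.034 on the LC and HC arrays of cow 1, 0.066 and 0.040 on those of cow 3, and between -0.009 and 0.021 on the other 4 arrays. For the 4 genes read from the ordinary scan it was -0.105 and -0.044 on the LC and HC arrays of cow 1, and -0.038 and 0.095 on those of cow 3.

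The shift was larger with the 75th percentile scaling and turned on some arrays with the spike-in scaling. With the 75th percentile scaling, the LC array of cow 3 was the highest of the 8 for 48 of the 55 genes, with a median deviation of 0.28, while the deviation was 0.089 for the other 277 low-gain probes and 0.004 for all probes well above background. That array was the highest for 89 of the other 277 low-gain probes and for 2735 of the 16030 probes well above background. The median of the 55 genes was -0.15 on the LC array of cow 1 and -0.16 on that of cow 4. The 4 genes read from the ordinary scan had a median of -0.035 on the LC array of cow 3, so the high value there was not seen in them. With the spike-in scaling, the HC array of cow 4 was the lowest for 46 of the 55 genes (median -0.18), but all probes well above background were low there as well (-0.24). It was the lowest for 104 of the other 277 low-gain probes and for 5329 of the 16030 probes well above background. The LC array of cow 3 then had a median of -0.031, with 14 of the 55 genes above their mean, against 2063 of the 16030 probes. The LC and HC arrays of cow 1 had medians of -0.040 and 0.006 over the 55 genes. The high side of cow 3 and the low side of cow 1 were thus not seen on every array in that scaling.

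A scaling that adds 1 value per array leaves the distance between these genes and all other probes as it is. The median deviation of the 55 genes minus that of all probes well above background, without quantile normalization, was 0.28 on LC and 0.053 on HC in cow 3, and -0.19 on LC and -0.098 on HC in cow 1. In cow 2 it was 0.045 on LC and -0.027 on HC, and in cow 4 it was -0.093 on LC and 0.059 on HC. The distance was thus positive on both arrays of cow 3, negative on both arrays of cow 1, and of opposite sign on the diets in cows 2 and 4. The part that the scan gain has in it was not tested.

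**Figure D4:**
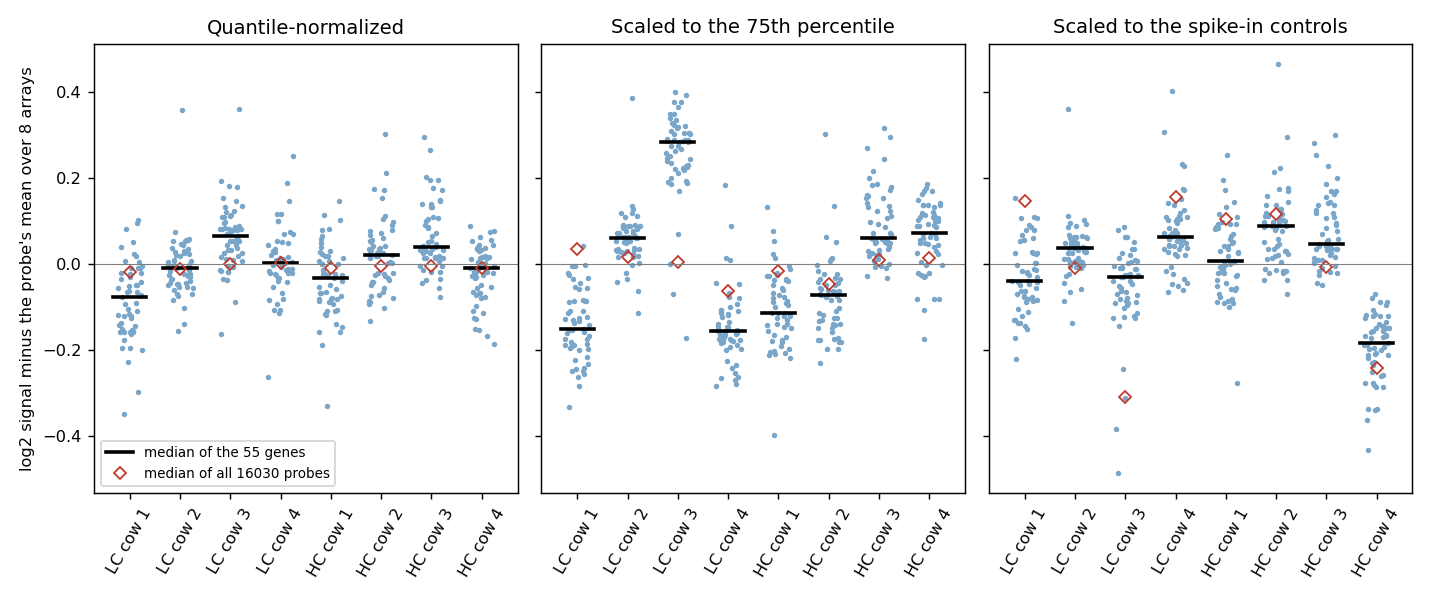
Log2 signal of each of the 55 ribosomal protein genes minus its mean over the 8 arrays (points), by array, after quantile normalization, 75th percentile scaling and spike-in scaling, with the median of the 55 genes (bars) and of all 16030 probes well above background (diamonds). In the middle panel the LC array of cow 3 stands at 0.28 while all probes stand at 0.004, and in the right panel the HC array of cow 4 stands lowest for the genes (-0.18) and second lowest for all probes (-0.24).

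Within single cows, HC minus LC had a median over the 55 genes of 0.052, 0.014, 0.004 and -0.008 in cows 1 to 4 after quantile normalization. With the 75th percentile scaling the medians were 0.045, -0.13, -0.20 and 0.23, and with the spike-in scaling 0.053, 0.052, 0.095 and -0.24. No scaling gave 1 direction in all 4 cows, and cows 2, 3 and 4 changed direction between the latter scalings. Within a period the 2 diets were on different cows, so HC minus LC there also compares cows 1 and 2 with cows 3 and 4. With 2 arrays per diet, its median was 0.065 in period 1 and -0.035 in period 2 (0.12 and -0.14 with the 75th percentile scaling, -0.057 and 0.045 with the spike-in scaling).

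For period, none of the 55 genes had an unadjusted limma p under 0.05, against 12.3% of all probes. The median difference, period 2 minus period 1, was 0.020, against 0.018 over all probes, and the range was -0.067 to 0.14. The smallest p was 0.227 (RPL17, difference 0.13), followed by RPL30 (0.14) and RPS29 (0.10). All 55 intervals lay within a 1.5-fold change. Slide and period cannot be told apart, and this comparison is of both.

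In this crossover, the diet by period interaction is the contrast of the arrays of cows 1 and 2 with those of cows 3 and 4. One of the 55 genes had an unadjusted limma p under 0.05, against 10.2% of all probes. It was RPS4Y1 (NM_001082422), a small subunit protein that the bovine table also lists as RPS4. Its signals were 15.03, 15.30, 15.68 and 15.44 on LC and 14.99, 15.34, 15.47 and 15.34 on HC in cows 1 to 4. Cow 1 was the lowest and cow 3 the highest on both diets. Cows 1 and 2 were lower than cows 3 and 4 by -0.32 (log2, SE 0.13, limma p of 0.048 and adjusted p over all probes of 0.486), with means of 15.16 and 15.48. The 2 arrays of a cow are not independent for this contrast, and with their mean in place of both, the p was 0.12 and none of the 55 genes was under 0.05, against 5.96% of all probes. The SD between spots was 0.25 for RPS4Y1.

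Over all 55 genes, the median of cows 1 and 2 minus cows 3 and 4 was -0.051, and 45 of the 55 were lower in cows 1 and 2 (20 of 26 in the small and 25 of 29 in the large subunit), against a median of -0.0035 over all probes. With the 75th percentile scaling the median was -0.14 and 53 of 55 were lower. With the spike-in scaling the median turned to 0.042 and 44 of 55 were higher, while all probes shifted further in the same direction, to a median of 0.20. After RPS4Y1, the smallest p values were those of RPL36A (difference -0.18, p of 0.081) and RPL17 (-0.17, p of 0.140) in limma. RPL36A had LC signals of 14.24, 14.27, 14.46 and 14.34 and HC signals of 14.15, 14.22, 14.44 and 14.35 in cows 1 to 4, so that cow 3 was the highest on both diets. Of the 5 markers of dividing cells on the array, 4 were higher in cows 1 and 2 at an unadjusted limma p under 0.05, namely MCM3 (0.65), MCM4 (0.58), MCM5 (0.55) and PCNA (0.51), and all 5 had a positive difference, against 5% of all probes higher there at such a p. With the mean of the 2 arrays of each cow, MCM4 (p of 0.046) alone of the 5 was under 0.05, and the others lay between 0.058 and 0.32. The log2 of the summed signal of the 5 was 12.48 to 13.25 on LC and 12.36 to 13.41 on HC. Positive differences for this contrast were also found in 2 of 2 red blood cell and 5 of 5 smooth muscle markers on the array. The same held for 8 of 11 squamous epithelial, 3 of 5 leukocyte and 1 of 6 stroma and vessel markers. None of these other markers had an unadjusted limma p under 0.05 for it. The part of any of these markers in the difference of the ribosomal protein genes was not tested.

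Other genes of translation were compared in the same fit. Of 25 listed elongation factors, initiation factors and further genes whose messages begin like those of ribosomal proteins, 16 were on the array and none had an unadjusted limma p under 0.05 for diet (median 0.009), against 1.85% of all probes for higher and 1.80% for lower. FAU, whose product is cut into a ribosomal protein and a ubiquitin-like part, had a diet difference of 0.14. EEF1A1 and EEF2, the elongation factors, had 0.045 and -0.11. Between the cows, NAP1L1 (-0.30) and HNRNPA1 (-0.28) were lower in cows 1 and 2 at an unadjusted limma p under 0.05, against 5.16% of all probes, and 14 of the 16 had a negative difference there. With the mean of the 2 arrays of each cow, the p was 0.056 for NAP1L1 and 0.058 for HNRNPA1.

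Of 34 listed genes of ribosome assembly and ribosomal RNA synthesis, 22 were on the array and 1 had a p under 0.05 for diet, against 3.65% of all probes. The 1 gene was RRS1, which helps to bring the 5S particle into the large subunit. RRS1 was at 6.54, 6.55, 6.93 and 7.01 on LC and 5.86, 6.60, 6.05 and 6.13 on HC in cows 1 to 4, lower on HC in cows 1, 3 and 4 and slightly higher in cow 2. The difference was -0.59 (SE 0.17), with an unadjusted limma p of 0.012 and an adjusted p of 1.00 over all probes. The median over the 22 genes was -0.060 and 6 were higher on HC. Of 22 listed genes of the S6 kinase and mTOR pathway, 11 had a probe named in the gene table. None of these 11 had a p under 0.05 for diet (median -0.036), against 3.65% of all probes. TSC2, which the study lists as lower on HC, was among the listed genes without a named probe, so its value is not given here. RPS6KB1, the kinase of RPS6, was at 7.59 ± 0.075 on LC and 7.47 ± 0.021 on HC (difference -0.12, SE 0.086), a difference that did not pass the test. RPTOR, the scaffold of the mTOR complex, was higher in cows 1 and 2 by 0.45, at an unadjusted limma p of 0.012 (0.044 with the mean of the 2 arrays of each cow). It alone of the 11 had a p under 0.05 for this contrast, against 10.2% of all probes, or 5.96% with the cow means.

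**Figure D5:**
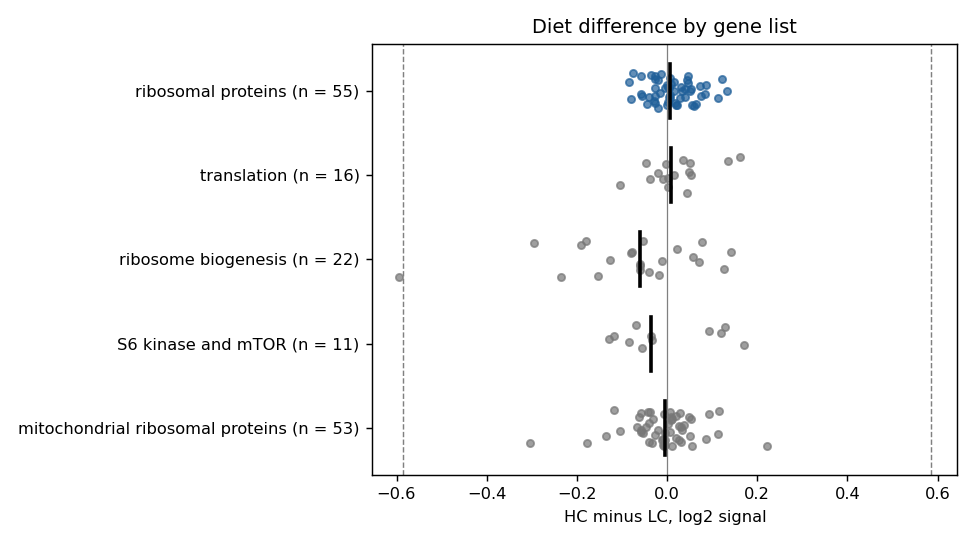
Difference between the HC and LC diets (log2 signal) of each gene (points) in the ribosomal proteins and in 4 related gene lists, with the median of each list (bars) and dashed lines at a 1.5-fold change. The 55 ribosomal protein genes lie between -0.083 and 0.13, and among the genes of the other lists only RRS1, at -0.59, reaches a dashed line.

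The 53 genes of the mitochondrial ribosome with a probe, which are encoded apart from the cytosolic set, had a median diet difference of -0.0048. One of them, MRPL1, was lower on HC at an unadjusted p under 0.05 (-0.30, SE 0.11, limma), against 1.8% of all probes lower at such a p. The median SD of the 53 genes over the 8 arrays was 0.12. Of the 3 paralogues that the rule left out, RPL26L1 and RPS27L had diet differences of 0.042 and 0.022. RPL3L, a paralogue known from muscle, was well above background on 7 of 8 arrays and was lower on HC by -0.36 (log2, SE 0.14), at an unadjusted limma p of 0.041. RPS19BP1, found by the rule but no ribosomal protein, was at 12.87 ± 0.087 on LC and 12.97 ± 0.23 on HC, a difference of 0.097 that did not pass the test.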

How the data were processed

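RNA of rumen papillae from 4 cows was measured on 8 single-colour bovine arrays, 4 per diet, and samples were grouped by the diet and cow in their labels. For each array the authors deposited the intensity of every spot after background subtraction (Agilent Feature Extraction 10.7.3.1, with no normalization between arrays), and a table of log2 values, which the authors had quantile-normalized and which served here as an alternative. The software extends its range with a scan at low gain, whose signals it scales up. Of the probes, 76.9 to 81.2% per array passed the software's background test, and precision is limited by having 4 arrays per diet.

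Control and outlier spots were left out, log2 intensities were quantile-normalized, spots of a probe were averaged, and a model with diet, period and the diet by period term was fitted to all 21475 probes, unfiltered (limma 3.58.1, R 4.3.3). Benjamini-Hochberg adjustment was over all probes. Permutation tests compared the 4 arrays of each diet without their pairing unless called paired. Tables and plots were made in Python 3.11.15 (pandas 2.3.3, numpy 2.4.6, scipy 1.17.1, matplotlib 3.10.9). The fit was tested on simulated data. The RefSeq gene table of ARS-UCD2.0 gave symbols to 8297 of 10176 probes with an accession, and positions are not given because the array is of another build.

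The members, gene lists and rules were chosen with earlier results of these data known. Genes were named by role, smallest p or largest difference in each direction for diet, smallest p for period and interaction, and largest or smallest SD. RPS25 and RPL8 were added to these once their values were known. The numbers of the cows pair the samples, since the LC and HC arrays of a number are of the same animal. Over 16030 probes that passed the background test on every array, deviations from the diet mean correlated at r = 0.285, 0.298, 0.467 and 0.113 between the arrays of cows 1 to 4, and at -0.237 to 0.185 between different cows. Alternatives were 75th percentile scaling, normexp with an offset of 50 on the median signal (the files used have no mean signal column), the deposited table, a filter on dim probes, all probes of a gene averaged, other terms, cow as a block, no moderation and leaving out each array. Added after the data were seen were median scaling, scaling to 7 spike-in controls with a mean log2 signal above 6, no scaling, and the mean of the 2 arrays of each cow. Promoters and proteins were not analysed here.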

Additional observations from a re-analysis of the deposited data

Results flagged for a closer look

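RPS4Y1 was the only one of the 55 ribosomal protein genes whose diet difference differed between the periods by the interaction test of limma (unadjusted p of 0.0480, adjusted p over all probes of 0.486). In the same test, 10.2% of all probes had an unadjusted p under 0.05. For RPS4Y1, the values by period were as follows. HC minus LC was positive in period 1 and negative in period 2, and in this crossover the same contrast compares cows 1 and 2 with cows 3 and 4. With the mean of the 2 arrays of each cow, the p was 0.12. Of the 50 groups of 4 arrays (25 named genes on 2 diets), none held an array that stood apart from the other 3 by Dixon's test, where chance gives about 1 in 20.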

How the results depend on the processing

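The diet result changed little. The count of ribosomal protein genes with an unadjusted p under 0.05 for diet was 0 under all alternatives except the model without moderation, which gave 2 (RPL31 and RPS29), and no gene passed both thresholds under any. With the replicate block, cow as a fixed or random term beside period, the count for diet was 0, the smallest p was 0.17 and 0.10, the median stayed at 0.0072, and no call changed. The median diet difference was -0.0392 without scaling between arrays and -0.0126 to 0.0317 with 1 array left out in turn. Of the 525 values of the 25 named genes under alternatives, 0 passed both thresholds. Some signs turned by more than the SD between the arrays within a diet, pooled over both diets. These were RPS3 (0.0305) and RPS13 (-0.0336) with normexp, and RPS2 (-0.0007, near 0), RPS13 (-0.0480) and RPL6 (-0.0227) without scaling. Smaller turns of sign occurred in at most 8 of the 25 genes per alternative. For period, normexp gave 1 gene (RPS25), and the median difference was -0.0414 with the 75th percentile scaling, 0.0511 with the spike-in scaling and 0.0032 to 0.0456 with 1 array left out. For the interaction, the count of 1 (RPS4Y1) became 0 with the 75th percentile, median, spike-in and no scaling, with the deposited table and with cow means, 4 with normexp (RPL23A, RPL36A, RPL8 and RPLP0), 5 without moderation (these and RPS3A, against 9.13% of all probes), and 0 to 1 with 1 array left out, being 0 when LC or HC of cow 1, LC or HC of cow 3, or HC of cow 4 was left out. The causes were not tested. For the normexp counts for period and the interaction, the share of all probes under 0.05 with normexp is not given here. With the quantile-normalized values, that share was 12.3% for period and 10.2% for the interaction. The normexp counts therefore cannot be read as more than the share of all probes. The number of cows limits these results, and the widest diet interval of a single gene reached 1.52-fold, or 1.53-fold and 1.54-fold with the median and spike-in scalings.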
